A study of Mus musculus with 14 samples.

Results

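The CC chemokine genes Ccl2, Ccl3, Ccl4, Ccl6, Ccl7, Ccl8, Ccl9 and Ccl12, whose products attract monocytes, and Ccr2, the receptor that takes inflammatory monocytes out of bone marrow and blood into tissue, were followed in transplanted mouse hearts. The genes were chosen by name, with earlier results of these data known. Each was represented by 1 probe set, so 9 genes were followed of the 8251 named on the MG-U74Av2 array, and 9 of its 12422 probe sets that are not controls. All 9 passed the filter on dim probe sets, as did 10395 probe sets in all. The study hybridised total RNA of transplanted hearts to 14 arrays in 5 groups. Isografts, C57/BL6 hearts placed in C57/BL6 recipients, were taken at day 7 (n = 3) and day 70 (n = 2). Rejecting allografts, Balb/c hearts in C57/BL6 recipients with no agent named, were taken at day 7 (n = 3). Tolerizing allografts, Balb/c hearts in C57/BL6 recipients given anti CD80/86 mAb, antibodies against the costimulatory ligands CD80 and CD86 on antigen-presenting cells, were taken at day 7 (n = 3) and day 70 (n = 3). All recipients were C57/BL6, no untransplanted heart was analysed here, and sex and age are not in the labels. Nothing says whether replicates came from separate operations, so the p-values measure the spread between these arrays, which may be technical. Allografts came from another donor strain than isografts, so wherever these are compared, donor strain and the response to the graft cannot be told apart. The antibody is named for tolerizing allografts only, so in their comparisons with isografts its effect cannot be told apart from these either. Rejecting allografts were taken at day 7 only, so against tolerizing allografts of day 70 antibody and day cannot be told apart.

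Chemokines are small secreted proteins that guide leukocytes along gradients through G protein-coupled receptors. Ccl2, Ccl7 and Ccl12 are ligands of Ccr2, and mice without Ccr2 or Ccl2 send few inflammatory monocytes to inflamed tissue. Ccl8 belongs to the same subfamily of monocyte chemoattractant proteins. Ccl3 and Ccl4 are macrophage inflammatory proteins made by activated macrophages, T cells and NK cells. Ccl3 binds Ccr1. Ccl6 and Ccl9 are rodent chemokines of myeloid cells that act through Ccr1. In a heart graft, monocytes that arrive from the recipient become macrophages and dendritic cells, which are found in rejected and in accepted grafts alike.

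In the RefSeq annotation of GRCm38.p6, all 8 chemokine genes lie on chromosome 11 and Ccr2 lies on chromosome 9. Ccl2, Ccl7, Ccl11, Ccl12 and Ccl8 follow each other with no other coding gene between them. Ccl9, Ccl6, Ccl3 and Ccl4 form another such row, which begins beside Ccl5. Promoter windows of 250 bases before the RefSeq start were found for 6 of the 9 genes (Ccl8, Ccl12, Ccl3, Ccl6, Ccl9 and Ccr2). Among rejecting arrays, Ccl8 and Ccl12 read highest on array 3 and Ccl9 on array 1, while Ccl3 read nearly alike on arrays 2 and 3 (145.6 and 144.8). For this reason the windows shown here are those of Ccl8 and Ccl12, neighbours from the first row, and of Ccl3 and Ccl9, from the second row. They lie at chr11:82114935-82115184 (plus strand), chr11:82101595-82101844 (plus strand), chr11:83649379-83649628 (minus strand) and chr11:83578637-83578886 (minus strand), in that order. Each is written 5′ to 3′ and ends at the base before the start, with matches to the motifs searched in capitals.
Ccl8: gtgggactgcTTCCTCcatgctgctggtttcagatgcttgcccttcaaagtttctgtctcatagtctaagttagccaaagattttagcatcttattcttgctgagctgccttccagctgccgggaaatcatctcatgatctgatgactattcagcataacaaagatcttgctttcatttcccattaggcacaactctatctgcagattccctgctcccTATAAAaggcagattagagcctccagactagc
Ccl12: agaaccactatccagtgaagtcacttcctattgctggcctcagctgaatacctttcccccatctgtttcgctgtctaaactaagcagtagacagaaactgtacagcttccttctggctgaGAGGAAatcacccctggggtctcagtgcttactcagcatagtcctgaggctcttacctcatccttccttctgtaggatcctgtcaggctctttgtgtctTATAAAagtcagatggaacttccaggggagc
Ccl3: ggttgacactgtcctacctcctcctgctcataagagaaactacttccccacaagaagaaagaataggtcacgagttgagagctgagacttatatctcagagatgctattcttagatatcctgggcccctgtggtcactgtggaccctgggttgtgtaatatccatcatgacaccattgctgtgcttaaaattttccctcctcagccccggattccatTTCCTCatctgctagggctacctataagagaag
Ccl9: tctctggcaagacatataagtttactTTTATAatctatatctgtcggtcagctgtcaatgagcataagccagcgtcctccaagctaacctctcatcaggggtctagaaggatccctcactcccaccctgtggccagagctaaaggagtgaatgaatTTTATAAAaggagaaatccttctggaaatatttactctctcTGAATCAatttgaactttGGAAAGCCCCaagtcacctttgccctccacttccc

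The motifs were searched on both strands. They were a TATA box (TATAAA), found in 12.4% of all 32817 promoter windows of that length in the RefSeq table, the PU.1 core (GAGGAA, in 23.3%), AP-1 (TGANTCA, in 6.75%), the kappaB site (in 3.9%), a STAT site called GAS (TTCNNNGAA, in 7.01%) and the interferon element ISRE (GAAANNGAAA, in 2.97%). PU.1 is the transcription factor that defines myeloid cells. The Ccl8 and Ccl12 windows each held a TATA box on the gene's strand, 32 to 27 and 31 to 26 bases before the start, and a PU.1 core, 240 to 235 bases before it on the opposite strand in Ccl8 and 130 to 125 bases before it on the gene's strand in Ccl12. The Ccl3 window held a PU.1 core 33 to 28 bases before the start on the opposite strand and none of the others. In Ccl9 there were TATA boxes 224 to 219 and 94 to 89 bases before the start on the opposite strand and 92 to 87 bases before it on the gene's strand, the last pair overlapping each other. It also held an AP-1 motif 53 to 47 bases before the start and a kappaB match 35 to 26 bases before it. None of these letters was found in the Ccl6 and Ccr2 windows. In pairwise alignments of the 6 windows, Ccl8 and Ccl12 shared the most bases of the 15 pairs, 56.9% of alignment columns, and Ccl9 and Ccr2 the fewest, 41.9%.

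The deposited values are signal intensities on a linear scale. Their mean without the lowest and highest 2% was 100.1 on every array. Intensities of different probe sets were not compared with each other. Differences are log2 values from 1 limma fit of all 14 arrays, with values under a floor of 11 set to it, and a gene is said to rise or fall where the p adjusted over all 10395 probe sets was under 0.05. In the order of deposit, 1 array of each group came first and the other 9 followed. The labels do not call this a batch, but the 18S control read at most 83.4 on every array of the earlier run and at least 120.4 on every array of the later one. Isografts had a beta-actin 3′/5′ ratio, which reflects RNA quality, between 1.52 and 1.98, and allografts between 1.09 and 1.69. Heart muscle genes were present throughout. The summed signal of 10 of them was lowest in rejecting allografts, 3717 to 19870, against 32660 to 47550 in isografts at day 7. The summed signal of 18 monocyte and macrophage markers lay between 4413 and 5169 in the early isografts, between 13300 and 16090 in rejecting allografts and between 7181 and 11470 in the early tolerizing allografts. The late isografts gave 1655 and 3798, and the late tolerizing allografts lay between 7487 and 11260. No marker of either list was at 0 on any array, but some were at or under the floor of 11. These were Fcer1g on 5 arrays, Clec4d on 3, Itgam on 2, and Fcgr3, Aif1 and the heart gene Ckm on 1 each. In whole hearts, more cells of a type and more RNA per cell cannot be told apart.

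When the mean of the 3 allograft groups was set against the mean of the 2 isograft groups, 7 of the 9 genes rose and none fell, where 9.24% of all probe sets tested rose and 10.4% fell. The risers were Ccl8 (6.85-fold), Ccl2 (6.36-fold), Ccl7 (3.99-fold), Ccl4 (3.60-fold), Ccl9 (2.90-fold), Ccl3 (2.57-fold) and Ccl6 (1.88-fold), with adjusted p between 0.001357 and 0.02573. The median log2 difference of the 9 genes was 1.54, against -0.03 for all probe sets tested. For Ccl2, Ccl7, Ccl8 and Ccl4 each of the 9 allografts read above each of the 5 isografts, an arrangement that 2.77% of all probe sets showed. This comparison was added after the values had been seen, and it reuses the arrays of the comparisons of single groups. Of the 18 macrophage markers 16 rose and none fell in it. Higher too were 9 of 12 T cell and 5 of 7 cytotoxic and NK cell markers, and lower were 7 of 10 heart muscle, 5 of 10 fibroblast and 4 of 9 endothelial markers. The part of these changes in the chemokine values was not tested. Without isograft array 1 of day 70, 4 of the 9 genes rose (Ccl2, Ccl7, Ccl8 and Ccl3), and without isograft array 2 of that day 8 did.

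**Figure D1:**
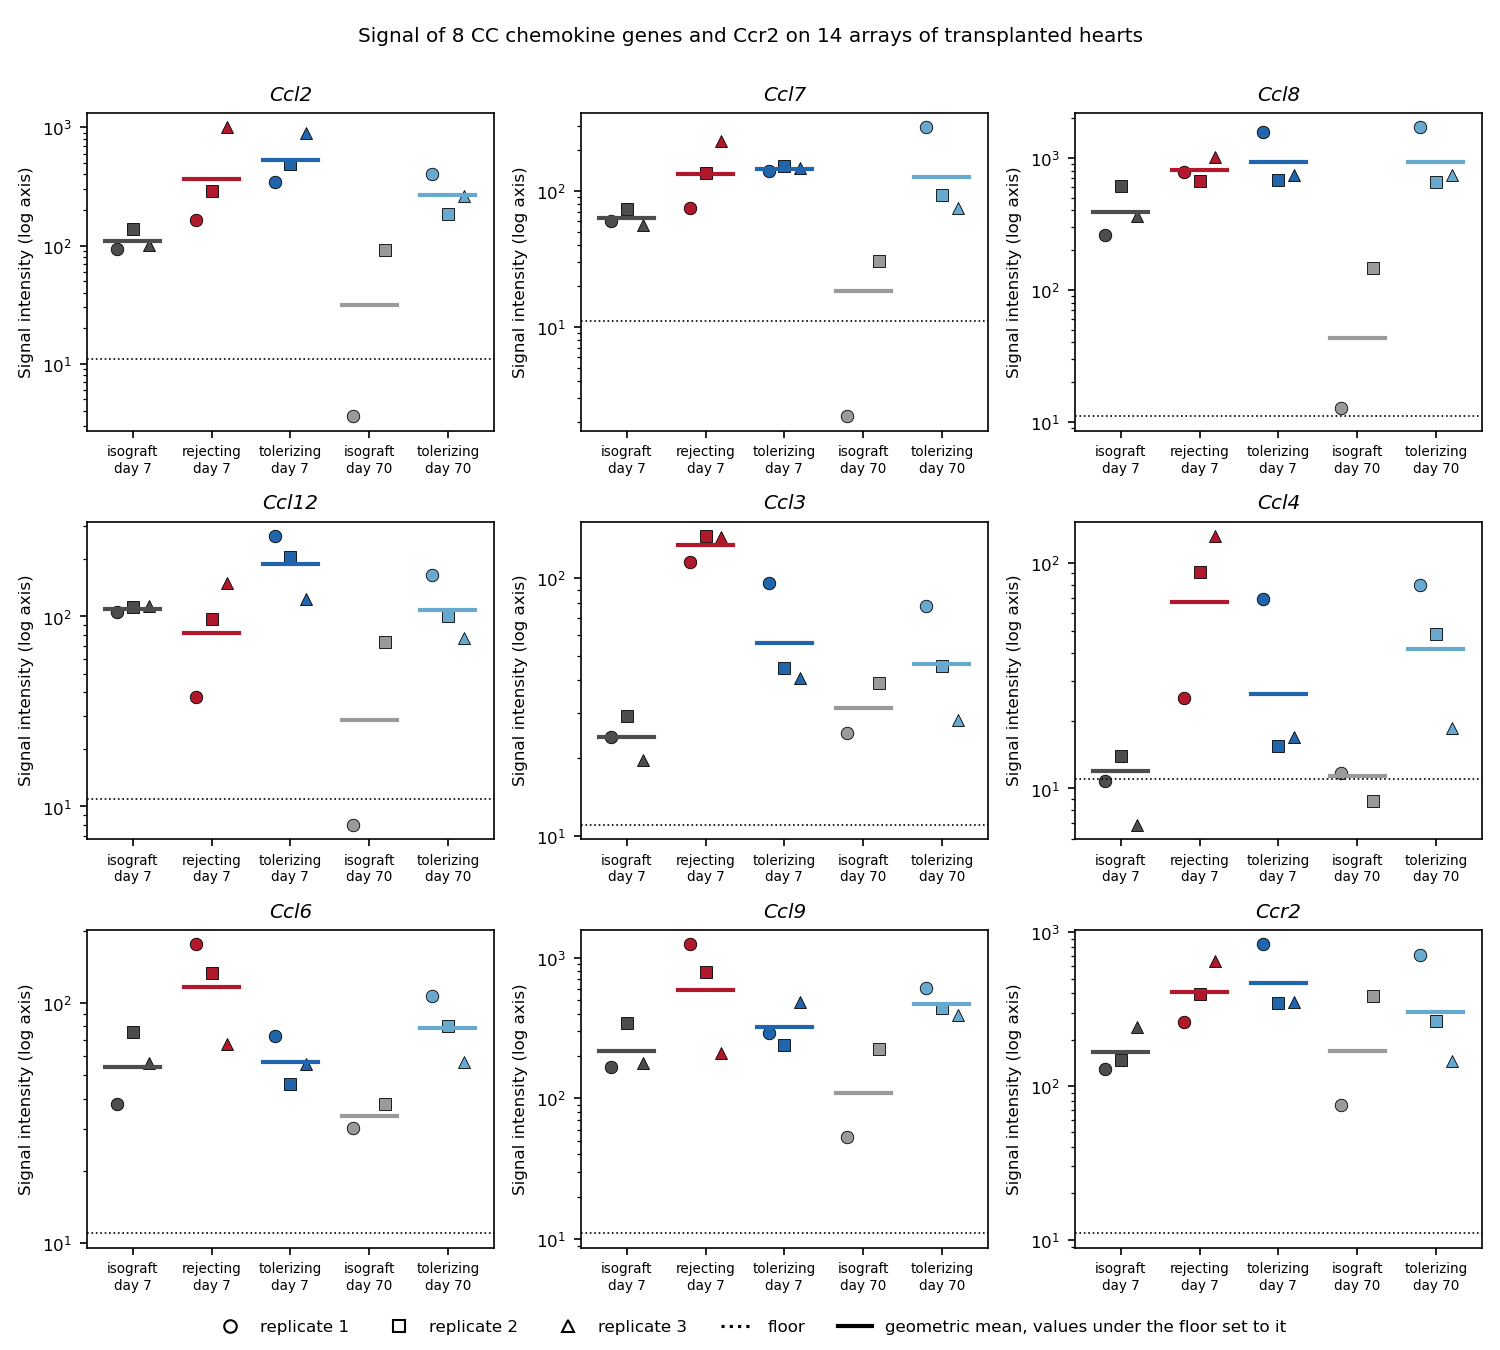
Deposited signal intensity (log axis) of each gene's probe set on 14 arrays, by group. Points are single arrays, shaped by replicate number, thick lines are geometric means with values under the floor set to it, and the dotted line is the floor of 11. Signals of Ccl2, Ccl7, Ccl8 and Ccl4 are higher on each of the 9 allograft arrays than on each of the 5 isograft arrays.

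Ccl2, the main Ccr2 ligand of injured tissue (probe set 102736_at), read 92.9, 138 and 100.5 in isografts at day 7, and 165.1, 292.3 and 998.5 in rejecting allografts. In tolerizing allografts it read 344.9, 488.9 and 889.7 at day 7 and 401.8, 186 and 261.3 at day 70. The isografts of day 70 gave 3.6 and 91.4. Rejecting and tolerizing arrays overlapped over most of their range, with rejecting array 3 the highest of all 14, and all of them lay above the isografts. The difference of rejecting from isograft hearts at day 7 was 1.74 (SE 0.71, limma adjusted p = 0.1174) and that of tolerizing from isograft hearts was 2.29 (SE 0.71, adjusted p = 0.1563), neither past the threshold. At day 70 it was 3.09 (SE 0.80), an 8.49-fold difference that did not pass the threshold either (limma adjusted p = 0.05323). Isograft array 1 of that day lay under the floor for Ccl2. Without that array the difference was 1.56, against 4.61 without array 2. By mean log2 signal the order ran from tolerizing at day 7 through rejecting, tolerizing at day 70 and isografts at day 7 to isografts at day 70, and the arrays of neighbouring groups overlapped among the allografts only.

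Ccl7, the other Ccr2 ligand beside Ccl2 on the chromosome (probe set 94761_at), had the same order of groups by mean log2 signal, while by mean of the plain signals tolerizing hearts of day 70 came first. Its signals were 60.1, 73.4 and 56.1 in isografts at day 7, 75.4, 135.4 and 233.9 in rejecting and 139, 150.9 and 146.2 in tolerizing allografts at day 7. At day 70 they were 2.2 and 30.5 in isografts and 292.2, 93.4 and 75.3 in tolerizing allografts. The tolerizing arrays of day 7 lay within a narrow band, inside the wider range of the rejecting ones, and the lowest allografts stood just above the highest isograft. Ccl7 rose 6.94-fold in tolerizing allografts against isografts at day 70 (log2 2.80, SE 0.57, limma adjusted p = 0.01579). At day 7 the differences were 1.09 (adjusted p = 0.1736) for rejecting and 1.21 (adjusted p = 0.3293) for tolerizing hearts.

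Ccl8, a monocyte chemoattractant that in the mouse is known as a ligand of Ccr8 (probe set 92459_at), gave the largest difference of the 9 genes in these comparisons. It read 1703.5, 658.6 and 737.8 in tolerizing allografts at day 70 against 12.8 and 147.2 in isografts of that day. At day 7 it read 261.7, 617.9 and 364.9 in isografts, 777.3, 670.1 and 1017.2 in rejecting and 1578.2, 682 and 743.4 in tolerizing allografts. The 3 allograft groups, tolerizing at day 70 the highest by mean and rejecting the lowest, overlapped each other, none reached down to the isografts, and the isografts of day 70 lay under those of day 7. The rise at day 70 was 21.6-fold (log2 4.44, 95% interval 2.79 to 6.08, SE 0.77, limma adjusted p = 0.005608). At day 7 the difference from isografts was 1.06 (adjusted p = 0.3469) for rejecting and 1.25 (adjusted p = 0.4901) for tolerizing hearts.

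Ccl12, a Ccr2 ligand found in rodents (probe set 93717_at), did not separate allografts from isografts at day 7 in the way of its neighbours. It read 105.2, 111.8 and 113.1 in the isografts, 37.8, 96.8 and 149.9 in rejecting and 265.4, 205.6 and 124.1 in tolerizing allografts. The isografts lay inside the range of the rejecting arrays and below all 3 tolerizing ones. By mean log2 signal, tolerizing hearts of day 7 stood first and isografts of day 7 second, then came tolerizing hearts of day 70 (second by mean of the plain signals), rejecting hearts and isografts of day 70, and from the second place down neighbouring groups overlapped. The difference of rejecting from tolerizing hearts was -1.21 (95% interval -2.52 to 0.11, limma adjusted p = 0.3827), the most negative of the 9 genes. At day 70 Ccl12 read 8.0 and 73.1 in isografts and 164.5, 100.5 and 76.8 in tolerizing allografts, a difference of 1.93 that did not pass the test (adjusted p = 0.1719).

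The macrophage inflammatory proteins Ccl3 and Ccl4 were the genes that rose in rejecting allografts against isografts at day 7. They were 2 of 9, where 8.54% of all probe sets rose in this comparison. Ccl3 (probe set 102424_at) read 24.2, 29.1 and 19.7 in isografts and 115.8, 145.6 and 144.8 in rejecting allografts of day 7, 95.2, 44.9 and 40.8 in tolerizing allografts of day 7, 25 and 39.2 in isografts of day 70 and 77.7, 45.4 and 28.2 in tolerizing allografts of day 70. The 3 rejecting arrays were close to each other and above all other arrays, and the groups after them in the order of means, tolerizing at day 7 and day 70 and isografts at day 70 and day 7, each overlapped the next. The rise was 5.60-fold (log2 2.49, SE 0.40, limma adjusted p = 0.001128). Ccl3 was also 2.91-fold higher in rejecting allografts than in tolerizing allografts of day 70 (log2 1.54, SE 0.40, limma adjusted p = 0.03429). Day and antibody both differ between these groups. This was the 1 call among the 9 genes, where 3.11% of all probe sets rose. That call was lost in 4 of 6 fits that left out 1 array of these groups, with adjusted p up to 0.1374, in the second run alone (1.13, adjusted p = 0.1662), with no filter on dim probe sets (adjusted p = 0.06917) and with the other groups left out of the fit (adjusted p = 0.1343). Against tolerizing allografts of day 7 the difference was 1.27 (SE 0.40, 95% interval 0.41 to 2.13) and did not pass (adjusted p = 0.1306). With the floor at the median of all values it did (1.26, adjusted p = 0.03225), and likewise with array weights (1.45, adjusted p = 0.01066).

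Ccl4 (probe set 94146_at) stood near the floor in isografts, at 10.8, 14 and 6.9 at day 7 and 11.7 and 8.8 at day 70. In rejecting allografts it read 25.1, 91.1 and 131.5, and in tolerizing allografts 69.4, 15.5 and 16.9 at day 7 and 80.0, 48.3 and 18.5 at day 70. Every allograft array read above every isograft array, but the allograft groups overlapped, with 1 tolerizing array of day 7 and 2 of day 70 inside the range of the rejecting arrays. The rise in rejecting allografts was 5.62-fold with isograft values under the floor set to it (log2 2.49, SE 0.68, limma adjusted p = 0.02138). It missed the threshold in 9 of 20 alternative settings, with adjusted p up to 0.165 in the second run alone. Leaving out isograft array 1 or 3 or rejecting array 2 or 3 gave adjusted p of 0.06628, 0.06099, 0.07855 and 0.06881. In tolerizing allografts the difference from isografts was 1.14 at day 7 (adjusted p = 0.5386) and 1.87 at day 70 (adjusted p = 0.2481).

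Ccl6 and Ccl9, the Ccr1 ligands, were highest by group mean in rejecting allografts, and no comparison of single groups passed the test for either. Ccl9 (probe set 104388_at) read 1240.7, 785.3 and 210.6 in rejecting allografts against 167.4, 342.8 and 179.5 in isografts of day 7, 291.6, 240.8 and 484.3 in tolerizing allografts of day 7, 53.4 and 225.1 in isografts of day 70 and 607.8, 436.3 and 391.7 in tolerizing allografts of day 70. Ccl6 (probe set 92849_at) read 175.4, 133.8 and 67.8 in rejecting allografts against 37.9, 75.5 and 56.4 in isografts of day 7, 72.6, 46.0 and 55.7 in tolerizing allografts of day 7, 30.2 and 37.9 in isografts of day 70 and 107.4, 79.9 and 56.9 in tolerizing allografts of day 70. In the order of means, tolerizing hearts of day 70 and day 7 and isografts of day 7 and day 70 followed in both genes, each group touching or overlapping the next. In both genes rejecting array 3 fell among the isografts of day 7 while the other rejecting arrays stood above them. The differences from isografts at day 7 were 1.44 for Ccl9 (SE 0.60, limma adjusted p = 0.1279) and 1.10 for Ccl6 (SE 0.38, adjusted p = 0.06029). Without rejecting array 3 they were 2.18 (adjusted p = 0.01069) and 1.49 (adjusted p = 0.009564). Ccl6 also passed under 9 other settings, the block for the run of deposit among them (1.10, adjusted p = 0.04723).

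Rejecting array 3, from the first run of deposit, set the chemokines apart from each other. It was the highest of its group for Ccl2, Ccl7, Ccl8, Ccl12, Ccl4 and Ccr2, and the lowest for Ccl6 and Ccl9. Array 1, the lowest of the group for 6 genes including Ccl2 and Ccl12, was the highest for Ccl6 and Ccl9. The range from lowest to highest rejecting array was 6.05-fold for Ccl2, 5.89-fold for Ccl9 and 5.24-fold for Ccl4, but 1.26-fold for Ccl3. On rejecting arrays 1, 2 and 3 the summed signal of 10 heart muscle genes was 3717, 5317 and 19870, that of 12 T cell markers was 981.3, 1592 and 3292, and that of the 18 macrophage markers was 16090, 15830 and 13300. Markers of cytotoxic and NK cells summed to 533.6, 848.1 and 3308, and those of neutrophils to 3398, 1383 and 827.4. The part of these differences in the chemokine values was not tested.

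**Figure D2:**
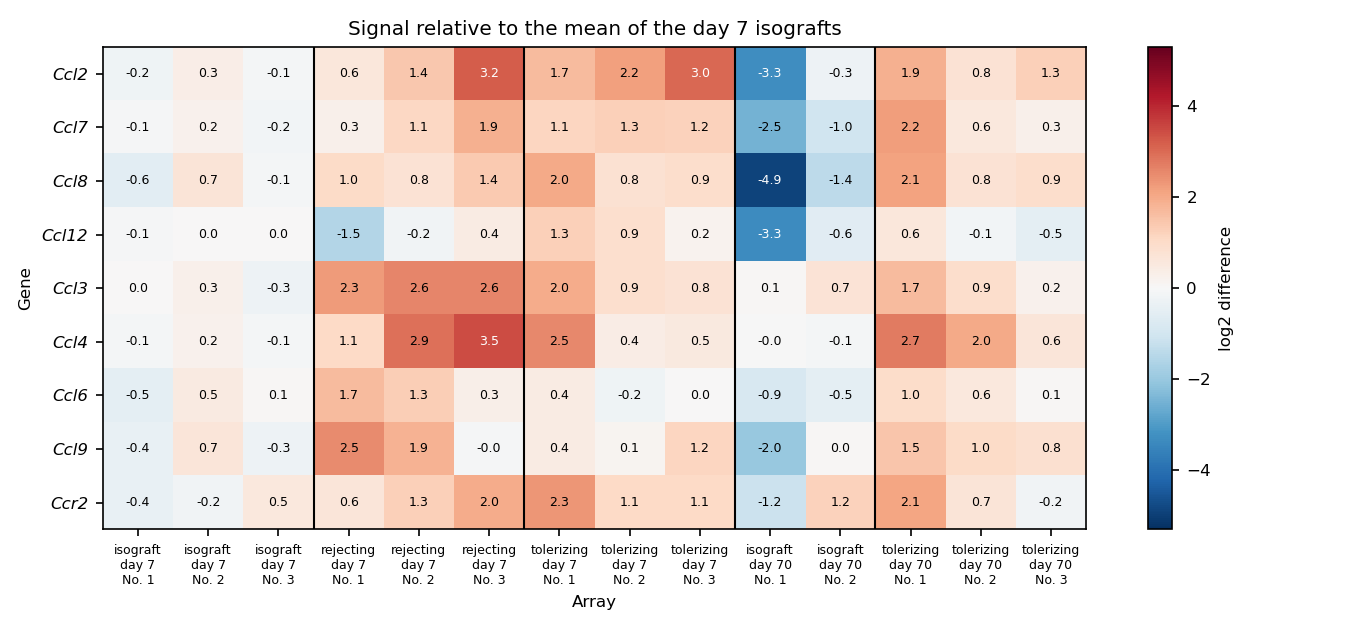
log2 signal of each gene (rows) on each array (columns), with values under the floor set to it, minus the gene's mean over the 3 isografts of day 7. Red is higher and blue lower, and black lines part the groups. Isograft array 1 of day 70 is lowest for Ccl2, Ccl7, Ccl8, Ccl12, Ccl6, Ccl9 and Ccr2. Rejecting array 3 is high for Ccl2 and Ccl4 but not for Ccl6 and Ccl9.

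Ccr2 itself (probe set 93397_at) read 128.4, 147.8 and 243 in isografts, 260.1, 398.4 and 648.3 in rejecting and 833.4, 347 and 350.9 in tolerizing allografts of day 7. At day 70 it read 74.9 and 385.2 in isografts and 714, 263.7 and 145 in tolerizing allografts. At day 7 all 6 allografts read above the 3 isografts, while at day 70 the groups overlapped. By mean the order was tolerizing at day 7, rejecting, tolerizing at day 70, and isografts at day 70 and at day 7, each group overlapping the next. No comparison passed the test. The differences from isografts were 1.29 (SE 0.64, limma adjusted p = 0.1994) in rejecting and 1.49 (SE 0.64, adjusted p = 0.3391) in tolerizing allografts at day 7, and 0.83 (SE 0.71, adjusted p = 0.6398) at day 70. Between rejecting and tolerizing hearts of day 7 the difference was -0.20, with a 95% interval of -1.57 to 1.17, which leaves room for either to be higher.

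For the early response as a whole, 6 of the 9 genes read higher on every rejecting array than on every isograft array of day 7 (Ccl2, Ccl7, Ccl8, Ccl3, Ccl4 and Ccr2), against 15.6% of all probe sets. In tolerizing allografts of day 7 the count was 7 of 9, the same genes with Ccl12 added, against 9.75% of all probe sets. None of the 9 passed the test there in limma, where 0.943% of probe sets rose. An unadjusted p under 0.05 was found for 4 of them (Ccl2, Ccl7, Ccl3 and Ccr2) and for 1348 of all 10395 probe sets. Both comparisons use the same 3 isografts. The median log2 differences of the 9 genes were 1.29 in rejecting and 1.21 in tolerizing hearts, against 0.04 and -0.02 for all probe sets. Among the 18 macrophage markers, 15 rose and 1 fell in rejecting hearts, and 1 rose in tolerizing hearts.

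The direct comparison of rejection with tolerance at day 7 asks whether these signals differ with the antibody, and here donor and recipient strains are the same in both groups. None of the 9 genes passed the limma test, where 0.529% of probe sets rose and 0.885% fell. An unadjusted p under 0.05 was found for 2 of them (Ccl3 and Ccl6) and for 1565 of all 10395 probe sets. Over all probe sets 55 rose and 92 fell, and without rejecting array 3 these counts were 304 and 467, with Ccl6 then among the risers (1.42, adjusted p = 0.02731). Ccl3 alone of the 9 read higher on all 3 rejecting arrays than on all 3 tolerizing arrays, against 8.89% of all probe sets. The median difference was -0.12. The 95% intervals were wide, from -2.08 to 0.99 for Ccl2 and from -1.67 to 1.28 for Ccl8, and hold differences of either sign.

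**Figure D3:**
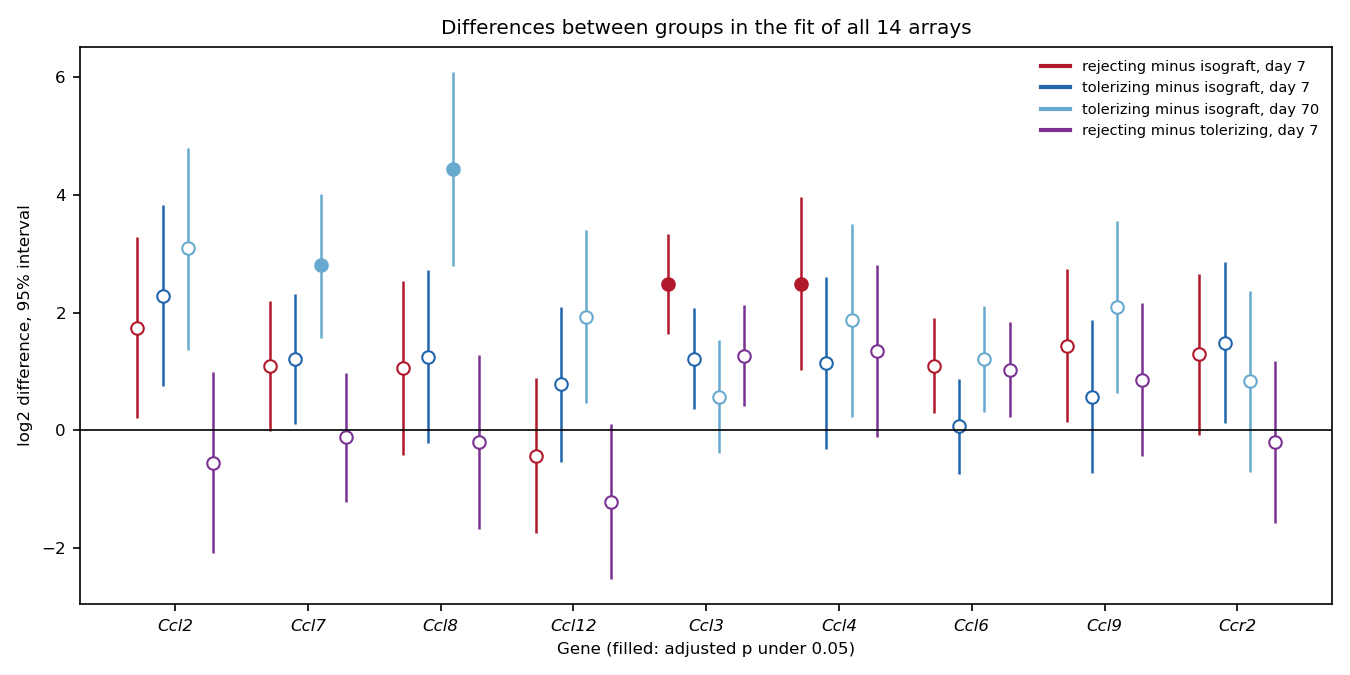
log2 difference with its 95% interval for 9 genes in 4 comparisons of the fit of all 14 arrays. Filled points passed an adjusted p of 0.05: Ccl3 and Ccl4 in rejecting against isograft hearts at day 7, and Ccl7 and Ccl8 in tolerizing against isograft hearts at day 70. The intervals for rejecting minus tolerizing hearts include 0 for all genes but Ccl3 and Ccl6, whose adjusted p missed the threshold.

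At day 70 the tolerizing allografts were compared with isografts of the same age. Ccl7 and Ccl8 rose, 2 of the 9 genes, where 2.35% of all probe sets rose. In 7 of the 9 genes (all but Ccl3 and Ccr2) every tolerizing array read above both isografts, against 12.6% of all probe sets. The median difference was 1.93, against -0.09 for all probe sets. The calls depend on the isografts. Isograft array 1 of day 70 read 3.6 for Ccl2, 2.2 for Ccl7 and 8.0 for Ccl12, all under the floor, and 12.8 for Ccl8. Array 2 of the same group read at least 8.31-fold, at least 2.77-fold, at least 6.65-fold and 11.5-fold higher. Without array 1 neither gene passed (Ccl7 2.06, adjusted p = 0.2606, and Ccl8 2.67, adjusted p = 0.06957). Without array 2 the genes that passed were Ccl2 (4.61, adjusted p = 0.006976), Ccl7, Ccl8, Ccl12 and Ccl9. These fits leave 1 isograft of day 70, which is assumed to vary like the other groups. The difference for Ccr2, called in neither, was -0.36 without array 1 and 2.01 without array 2. Without tolerizing array 1 Ccl7 had an adjusted p of 0.05357. Of the 18 macrophage markers 7 rose and none fell. Their part in these values was not tested.

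**Figure D4:**
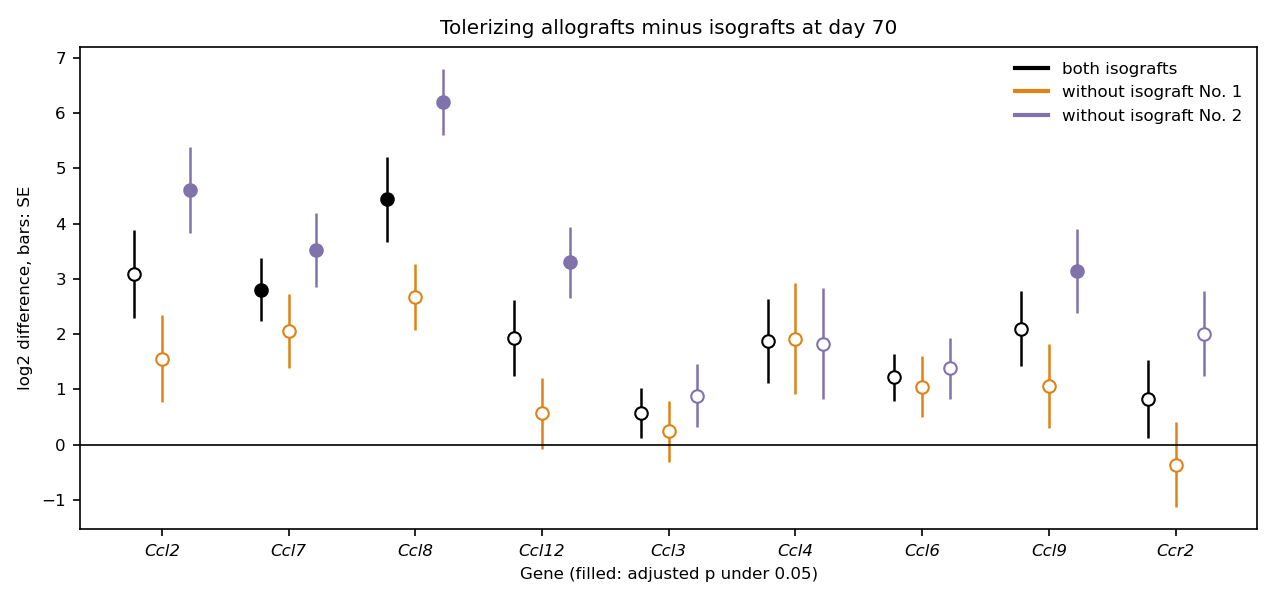
log2 difference of tolerizing allografts from isografts at day 70, with SE, for 9 genes. Black uses both isografts, orange leaves out isograft array 1 and purple isograft array 2, and filled points passed an adjusted p of 0.05. With array 1 left out no gene passes, and with array 2 left out Ccl2, Ccl7, Ccl8, Ccl12 and Ccl9 pass.

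Between the isografts of day 70 the difference was large for most of the family. Array 1 was lower than array 2 by a log2 difference of -3.52 for Ccl8, -3.05 for Ccl2, -2.73 for Ccl12, -2.36 for Ccr2, -2.08 for Ccl9 and -1.47 for Ccl7, while the SD of that difference over all 10395 probe sets was 0.66. Ranked from the most negative, Ccl8 was number 8 and Ccl2 number 9 of the 10395. The gap was not particular to this family. Genes ranked before Ccl8 included Acta1 (52.8 on array 1 and 2097.1 on array 2, -5.31), Sprr1a (-4.95), Tnc (-4.11) and Timp1 (-3.62). Ccl3 (-0.65), Ccl6 (-0.33) and Ccl4 (0.09) stood closer together. The macrophage markers summed to 1655 on array 1 and 3798 on array 2. The 2 arrays also belong to different runs of deposit. When the run was added to the fit of all groups as a block, the difference of tolerizing allografts from isografts at day 70 was 4.51 for Ccl8 and 2.83 for Ccl7, against 4.44 and 2.80 without it. The block is a shift common to all groups, and each of these isografts is the only one of its group in its run. This fit therefore cannot tell run and array apart for the gap between them.

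Over time, none of the 9 genes passed the limma test in tolerizing allografts from day 7 to day 70, where 0.0385% of probe sets did. None of them had an unadjusted p under 0.05, while 645 of all 10395 probe sets did. Same-numbered arrays of these groups had correlated deviations from the group means (0.34, 0.253 and 0.268). The labels do not say what the number marks, and arrays of the same number here also share their run. With the number as a block in the fit of all 14 arrays, none of the 9 passed either, while over all probe sets 9 rose and 3 fell in place of 4 and 0. That fit is not a paired test of these groups alone. The differences ran from -0.98 for Ccl2 to 0.66 for Ccl4. In isografts Ccl2, Ccl7, Ccl8 and Ccl12 read lower on both arrays of day 70 than on all 3 of day 7, an arrangement shown by 10% of all probe sets. No probe set was called by limma in that comparison, where 559 had an unadjusted p under 0.05, and 4 of the 9 genes, the same ones, had an unadjusted p under 0.05. Ccl8 had the largest difference (-3.16, SE 0.77, limma adjusted p = 0.5613), which was -1.40 without array 1 of day 70 and -4.93 (adjusted p = 0.009344) without array 2. Whether the gap between tolerizing allografts and isografts grew from day 7 to day 70 was tested as an interaction. None of the 9 genes passed, nor did any probe set, although 409 had an unadjusted p under 0.05, and 1 of the 9, Ccl8, had an unadjusted p under 0.05 in limma (3.18, SE 1.03, adjusted p = 0.8771).

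Within the runs of deposit the called differences kept their sign. The first run, with 1 array a group and so no test, gave 2.88 for Ccl3 and 3.58 for Ccl4 in rejecting against isograft hearts at day 7, and the second gave 2.29 (limma adjusted p = 0.01788) and 1.95 (adjusted p = 0.165). For Ccl7 and Ccl8 at day 70 the first run gave 1.30 and 2.33 and the second 3.91 (adjusted p = 0.04246) and 6.37 (adjusted p = 0.01713), the second run holding isograft array 1 and not array 2. For all allografts against all isografts the second run alone gave 3.04 for Ccl2, 2.31 for Ccl7, 3.69 for Ccl8 and 1.63 for Ccl3, each past the threshold, and the first run gave 2.68, 1.73, 1.83 and 0.99. In the first run the difference for Ccl6 was 0.37 and for Ccl9 0.77, against 1.22 and 2.18 in the second.

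The other chemokines and receptors give the setting. Over all probe sets 8.54% rose in rejecting and 0.943% in tolerizing allografts against isografts of day 7, and 2.35% in tolerizing allografts at day 70, and the counts of these short lists stand beside those shares. Of 5 other CC and XC chemokine genes tested, 2 rose in rejecting and in tolerizing allografts against isografts of day 7, and they were Ccl5, a T cell chemoattractant, and Xcl1, which attracts cross-presenting dendritic cells. Ccl5 rose 28.9-fold in rejecting allografts at day 7 (limma adjusted p = 0.0007976). In tolerizing allografts it rose 10.8-fold at day 7 and 24.1-fold at day 70 (adjusted p = 0.02853 and 0.006566). Of 10 CXC and CX3C chemokine genes, 4 rose in rejecting allografts against isografts of day 7. These were the interferon-induced Cxcl9 (13.6-fold, adjusted p = 0.000301) and Cxcl10 (4.83-fold), and Cxcl2 (3.38-fold) and Cxcl5 (2.82-fold), which attract neutrophils. In tolerizing allografts of day 7 only Cxcl9 of the 10 rose (13.7-fold, adjusted p = 0.001311). Cxcl2 was the 1 chemokine of these lists that differed between rejecting and tolerizing hearts of day 7, 4.35-fold higher in rejection (adjusted p = 0.02201).

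Of 17 other chemokine receptors tested, 2 rose in rejecting allografts against isografts of day 7, a share near the 8.54% of all probe sets: Ccr1, the receptor of Ccl3, Ccl6 and Ccl9 (5.03-fold, adjusted p = 0.00792), and Cxcr4, the receptor of Cxcl12 (4.03-fold, adjusted p = 0.005068). Ccr1 was 5.68-fold higher in rejecting allografts than in tolerizing allografts of day 70 (limma adjusted p = 0.01491). Ackr3, a scavenging receptor, was 3.43-fold lower (adjusted p = 0.01369). These groups differ in day as well as antibody.

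Of 22 tested genes of the signals that induce monocyte chemokines, 7 rose and 1 fell in rejecting allografts against isografts of day 7. The 4 with the smallest p were Irf1, an interferon-induced transcription factor (3.80-fold), Tnfrsf1b, a TNF receptor (2.56-fold), and the inflammatory cytokines Il1b (9.85-fold) and Il6 (7.88-fold), with adjusted p from 0.0004357 to 0.003134. In tolerizing allografts Irf1 was the 1 gene of the 22 that rose at day 7 (3.29-fold, adjusted p = 0.003238), and Irf1 (3.74-fold) and Tnfrsf1b (2.09-fold) rose at day 70. In rejecting allografts against tolerizing allografts of day 70, 3 of the 22 rose and none fell, where 3.11% of all probe sets rose. They were Il6 (6.92-fold, limma adjusted p = 0.01324), Ifng, which encodes interferon gamma (3.43-fold, adjusted p = 0.03429), and Tnfrsf1b (1.76-fold, adjusted p = 0.0441). Ifng was at or under the floor on 9 of the 14 arrays, so its fold is bounded by the floor. Here too the day differs along with the antibody.

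Among the 9 genes, the log2 signals most alike over the 14 arrays were those of Ccl2 and Ccl7 (Pearson r 0.929). The closest of the 9 to Ccl8 was Ccl7 (0.918), the closest to Ccl12 was Ccl8 (0.819), and Ccl6 and Ccl9 (0.88) and Ccl3 and Ccl4 (0.858) were closest to each other. Each of these pairs comes from 1 gene row. Ccr2 was closest to Ccl7 (0.764). The least alike were Ccl6 and Ccl12 (0.195). Of 7366 genes, those most like Ccl3 were Glrx (0.953), Cd86 (0.947), a target of the antibody given to tolerizing recipients, and Arhgdib (0.931). Those most like Ccl4 were the T cell receptor component Cd3g (0.943), B4galnt1 (0.932) and the NK cell receptor gene Klra2 (0.922). Ccl8 was most like C1qc, a complement gene of macrophages (0.931), Ube2l6 (0.93) and the leukocyte gene Cd37 (0.927). Ccl2 was most like Ywhaq (0.924), Rmdn3 (0.92) and Slc25a25 (0.913), and Ccl7 most like Aoah (0.921), Irf7 (0.919) and Shisa5 (0.919). Irf7, an interferon regulatory factor, also stood second for Ccl12 (0.882), after Gnb4 (0.907) and before Ifi27l2a (0.865). Ccl6 was most like Prkcd (0.935), 5031439G07Rik (0.932) and Psap (0.932), Ccl9 most like Anxa1 (0.89), Tiam1 (0.888) and Gfpt2 (0.887), and Ccr2 most like Myd88 (0.89), Ms4a4c (0.878) and Ppp4c (0.868). These values describe arrays that share their groups and runs, and carry no test.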

How the data were processed

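The deposited table holds signal intensity of 12488 probe sets on 14 arrays. The authors' software and scaling for these intensities: not given in the sources used here. Judged by their values they are linear and scaled alike. They were kept as deposited, set to a floor of 11 (their 25th percentile) and turned into log2. Left out were 66 controls. Tested were 10395 probe sets with a signal over the floor on 3 or more of the 14 arrays. Symbols came from the platform annotation, updated through RefSeq's table of GRCm38.p6, which also gave gene order and promoters. The genome build behind the array design was not used.

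All 5 groups entered 1 fit (limma 3.58.1, R 4.3.3, eBayes with intensity trend, degrees of freedom 9 residual and 4.45 prior). Two-sided p-values had a Benjamini-Hochberg adjustment over all probe sets of a comparison. There were 7 comparisons of groups, 1 interaction and, added after the values were seen, all allografts against all isografts. A fold is 2 to the power of the log2 difference, understated where values lie under the floor. The fit was tried on simulated data with 3 arrays a group (rejecting against isograft hearts, day 7, 10395 probe sets). It called 48% of log2 changes of 1 and 97% of log2 changes of 2, with 8 false calls. In the other comparisons of groups it called between 84% and 93% of log2 changes of 2. Changes were added only to probe sets well above the floor, so these shares do not cover dim genes such as Ccl3 and Ccl4. The shares are averages over randomly drawn probe sets, each with its own spread, and were not computed for the 9 genes. For these the SE in rejecting against isograft hearts at day 7 ran up to 0.71 (Ccl2), so the shares do not give the power for brighter members either.

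The 9 genes, the gene lists and the tests were chosen with earlier results of these data known. Of a list, the counts called and up to 4 called genes with the smallest p are named. For each of the 9 genes the 3 genes most correlated with it over the 14 arrays are named. Lists had markers of monocytes and macrophages, T cells, cytotoxic and NK cells, B cells, neutrophils, mast cells, endothelium, fibroblasts and heart muscle. Beside those given in the text, in rejecting against isograft hearts at day 7 there were 9 of 12 T cell, 7 of 7 cytotoxic, 0 of 8 B cell, 2 of 9 neutrophil and 1 of 7 mast cell markers higher, and 5 of 9 endothelial, 6 of 10 fibroblast and 10 of 10 heart muscle markers lower. Alternatives changed scaling, floor, pseudocount, filter, variance model, array weights, blocks, a covariate, the groups in the fit and the arrays left out. Replicate numbers were taken to pair 2 groups where every same-numbered pair of arrays had deviations from the group means correlated over 0.1. This held for tolerizing hearts of day 7 and day 70 (0.34, 0.253 and 0.268) and for no other 2 groups, and nothing in the labels says what the number marks. Protein sequences were not used here.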

Additional observations from a re-analysis of the deposited data

How the results depend on the processing

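Of 1746 tested values of the 9 genes under alternative settings, 1673 kept their direction of call and side of the threshold, 33 lost a call, 40 gained one and none reversed a call. Among the 1673, 52 values changed sign while called neither in the reported fit nor in that alternative. Ccl3 in rejecting against isograft hearts at day 7 passed in 21 of 21 alternatives, Ccl4 in 11 of 20, Ccl7 and Ccl8 at day 70 in 14 of 19 and 18 of 20, and Ccl3 in rejecting hearts against tolerizing hearts of day 70 in 14 of 21. For all allografts against all isografts, Ccl2, Ccl7, Ccl8 and Ccl3 passed in every alternative run (27, 27, 28 and 28), and Ccl4, Ccl6 and Ccl9 in 22 of 27, 26 of 28 and 25 of 28.

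Counts of the 9 genes called higher changed as follows, and the cause was not tested unless stated. For rejecting against isograft hearts at day 7 the count of 2 became 1 with no filter on dim probe sets, 4 with array weights, 1 with the other groups left out of the fit and 1 to 3 with 1 array left out. It was 3 in 7 other settings. For tolerizing against isograft hearts at day 7 the count of 0 became 1 with the floor at the 50th percentile (Ccl2), with array weights (Ccl2) and with the other groups left out of the fit (Ccl7), and stayed 0 with any 1 array left out. For rejecting against tolerizing hearts at day 7 the count of 0 became 1 with the floor at the 50th percentile, 3 with array weights and 0 to 1 with 1 array left out. For tolerizing against isograft hearts at day 70 the count of 2 became 1 with the higher floor, 1 with no filter, 1 with only probe sets above the floor on all arrays (5 of the 9 genes tested), 5 in the second run alone, 4 with the beta-actin ratio as covariate, 0 with the other groups left out of the fit and 0 to 5 with 1 array left out. It was 3 with array weights and with the run as a block. For rejecting hearts against tolerizing hearts of day 70 the count of 1 became 0 with no filter, from the second run alone and with the other groups left out of the fit, and 0 to 1 with 1 array left out. For all allografts against all isografts the count of 7 became 4 with only probe sets above the floor on all arrays, where 5 of the 9 genes were tested, and 4 to 8 with 1 array left out. It was 6 in 3 settings and 8 from the second run alone. The count called lower in isografts over time was 0 to 1 with 1 array left out. Over all probe sets the number called ranged over the settings from 1153 to 2948 for rejecting against isograft hearts at day 7 (1842 as reported), 8 to 364 for tolerizing against isograft hearts at day 7 (176), 20 to 1512 for rejecting against tolerizing hearts at day 7 (147) and 37 to 405 for tolerizing against isograft hearts at day 70 (333). It ranged from 0 to 2611 for rejecting hearts against tolerizing hearts of day 70 (760), 868 to 2367 for all allografts against all isografts (2037), 0 to 46 for tolerizing hearts over time (4), 0 to 32 for isografts over time (0) and 0 to 3 for the interaction (0). Array weights were estimated with a warning that convergence was not reached.

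Same-numbered replicates met the correlation rule for pairing in tolerizing hearts of day 7 and day 70 only. Over all groups 11 of 26 same-numbered pairs of arrays had deviations correlated over 0.1, with a range of -0.176 to 0.34. With the replicate number as a block, the count called higher was 2 for rejecting against isograft hearts at day 7, 0 for tolerizing against isograft hearts at day 7, 0 for rejecting against tolerizing hearts, 2 for tolerizing against isograft hearts at day 70, 0 for tolerizing hearts over time, 1 for rejecting hearts against tolerizing hearts of day 70 and 7 for all allografts against all isografts. Groups of 2 or 3 arrays limit every statement here, and for Ccl4 the isograft values lie at the floor, so that its fold is bounded by background.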
